A study of Danio rerio with 3 samples.

Results

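Reads were examined for 86 genes of the cell division cycle in sorted lymphatic endothelial cells of the adult zebrafish brain. The genes were taken by symbol: A, B, D, E and G cyclins, numbered cyclin-dependent kinases (Cdk), the cdkn inhibitors, numbered Mcm genes, E2f factors, Aurora kinases, numbered Polo-like kinases, and pcna, mki67, top2a, rb1 and tyms. They are 86 of the 26269 genes that carried a symbol, in a count table of 32105 genes. By role, 31 serve DNA replication, the S phase or mitosis and are called proliferation genes here. A further 8 are Cip/Kip and Ink4 inhibitors, 6 are D cyclins or their partners Cdk4 and Cdk6, and 3 are RB1 and the G cyclins. The other 38 are remaining Cdk, E2f, Mcm and Polo-like kinase genes, the phosphatase gene CDKN3, and 13 genes that matched by name only.

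The study concerns mural lymphatic endothelial cells (muLECs) and the growth of meningeal blood vessels. Its samples form 1 group of 3 RNA-seq libraries from adult wildtype fish, with no treatment, sex or exact age named. Cells carrying a DsRed reporter of lyve1 were sorted from enzyme-dissociated brains, 6 brains to a library, and their RNA was amplified. There was no second cell population, so a gene could be set only against the other genes of the same cells.

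A cell enters division when D cyclins with Cdk4 or Cdk6, and then cyclin E with Cdk2, phosphorylate the retinoblastoma protein and release E2f factors, which switch on genes of DNA replication. The Mcm2 to Mcm7 helicase opens the DNA, Pcna clamps the polymerases to it, and cyclin B with Cdk1, the Aurora kinases and Plk1 carry the cell through mitosis. Proteins of the Cip/Kip family, such as p21 and p27, and of the Ink4 family bind cyclin-dependent kinases and hold the cell in G1 or in quiescence. Most endothelial cells of adult mammalian tissue are quiescent.

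The libraries held 34307745 to 36044297 reads. Levels are given as CPM, reads per 1000000 reads of the library, scaled by TMM, edgeR's trimmed-mean factors for library composition. A count of 3 reads is taken as the floor, below which a gene is not told from 0, and it came to 0.0794, 0.107 and 0.0729 CPM in replicates 1, 2 and 3. The test took every gene that reached 10 reads in 2 or more libraries, 7111 in all, and asked whether its reads lay above or below those of the median tested gene of the same library (475, 328 and 523 reads). Of 12 lymphatic endothelial markers 11 entered the test and 7 lay above the median gene, where 23.4% of all tested genes did. They were led by the mannose receptor gene MRC1 at 4289 CPM ± 891 and the scavenger receptor gene stab2 at 615 CPM ± 51 (SD, n = 3). The 7 include lyve1b, and the cells were sorted by a reporter of lyve1. The list was chosen with earlier results of these data known, so it is no independent check of the label. Of 13 pan-endothelial markers, a list chosen with the same knowledge, 11 entered the test and 6 stood above the median gene. They were led by clec14a at 373 CPM ± 83.1 (SD, n = 3). Not tested were the endothelial junction gene cdh5 and the receptor gene kdrl, at or below the floor in all 3 libraries. The lymphatic factor gene PROX1 had 614, 1213 and 1 reads. Markers of other brain cells were read as well, beside 23.4% of all tested genes above the median gene. Of 11 oligodendrocyte markers 5 were tested and 4 stood above, led by the myelin gene mbpa at 1122 CPM ± 856. Of 8 pericyte markers 2 were tested and 2 stood above, led by RGS5 at 273 CPM ± 334. Of 16 macrophage and microglia markers 7 were tested and 3 stood above, led by apoeb at 1360 CPM ± 882. Of 11 radial glia markers 3 were tested and 1 stood above (a copy of FABP7). For neurons it was 1 (GNG3) of 10 tested, and for meningeal fibroblasts 1 (PDGFRA) of 8 tested. PDGFRA is on the oligodendrocyte list too and is 1 of the 4 that stood above there. The oligodendrocyte, pericyte and radial glia lists had 5, 6 and 7 markers under 10 reads in every library. Reads were not divided by transcript length, so a value compares reads, not numbers of transcripts, whenever it sets one gene against another. In a bulk sample, fewer cells with a transcript and less of it per cell cannot be told apart.

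Most of the 86 genes were at or near 0 in most libraries. Of them, 41 were under 10 reads in every library, and 24 of these had no read at all. A further 17 reached 10 reads in 1 library, 11 in 2 and 17 in all 3. The 28 genes that entered the test were 32.6% of the 86, against 25.8% of all genes with a symbol and 22.1% of all genes in the table. Among the proliferation genes 7 of 31 passed (22.6%), and among the Cip/Kip and Ink4 inhibitors 3 of 8 (37.5%). The share of proliferation genes seen at this level lay near that of genes in general.

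**Figure D1:**
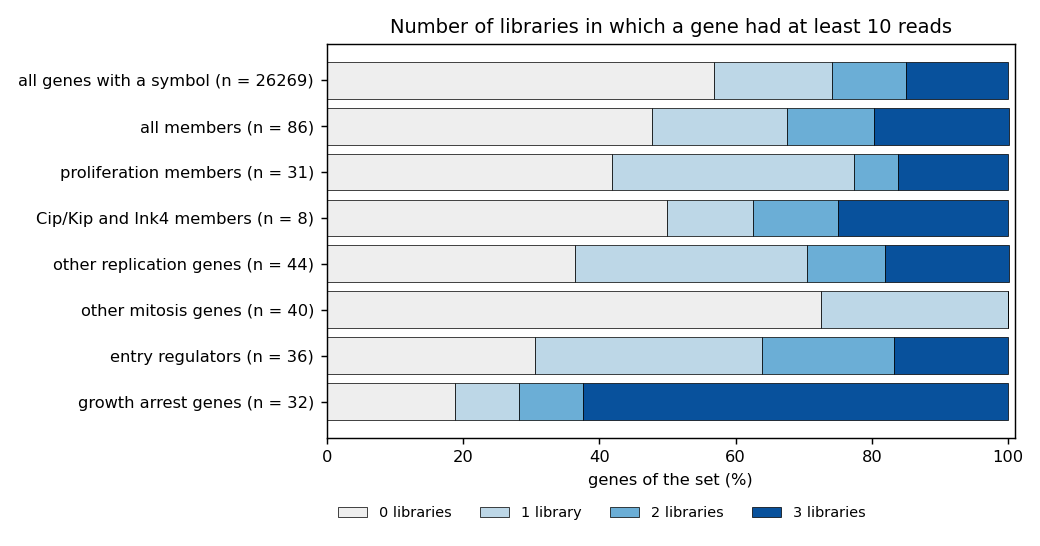
Share of genes (x axis, percent) with at least 10 reads in 0, 1, 2 or 3 libraries, for all genes with a symbol, the 86 cell cycle genes, 2 of their classes, and 4 further lists of pathway genes. Of the proliferation genes 35.5% reached 10 reads in a single library, against 17.4% of all genes with a symbol. The growth arrest list also holds stress genes and p53 regulators such as mdm2. Of that list 62.5% reached 10 reads in 3 libraries, against 15%. Members and lists were chosen with earlier results of these data known.

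In the edgeR quasi-likelihood test against the median gene, 7 of the 28 tested members stood above it at an adjusted p under 0.05, and 0 stood below. Of all 7111 tested genes 23.4% stood above, so 7 of 28 is near the background. Below the median gene stood 1.24% of all tested genes. At an unadjusted p under 0.05 the count of members below was also 0, where 250 of all 7111 tested genes lay below. DESeq2 called 7 members above and 0 below, against 22.3% and 0% of all tested genes, and limma-trend called 7 and 0, against 22.8% and 14.2%. By edgeR 88 of the 7111 genes stood below, so low genes were seldom called by it. The 7 were both copies of PLK2, PLK3, CCNG1, CCNG2, 1 copy of CDKN1B, and cdk5rap1. Of the 7 tested proliferation genes 0 were called, and whether this differs from the inhibitors, with 1 of 3, was not tested. Without replicate 1, 2 or 3 in turn, 5, 7 and 6 members stood above (background 23.3%, 27.2% and 21.1%), and 1, 0 and 0 below (background 6.34%, 8.25% and 4.84%).

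**Figure D2:**
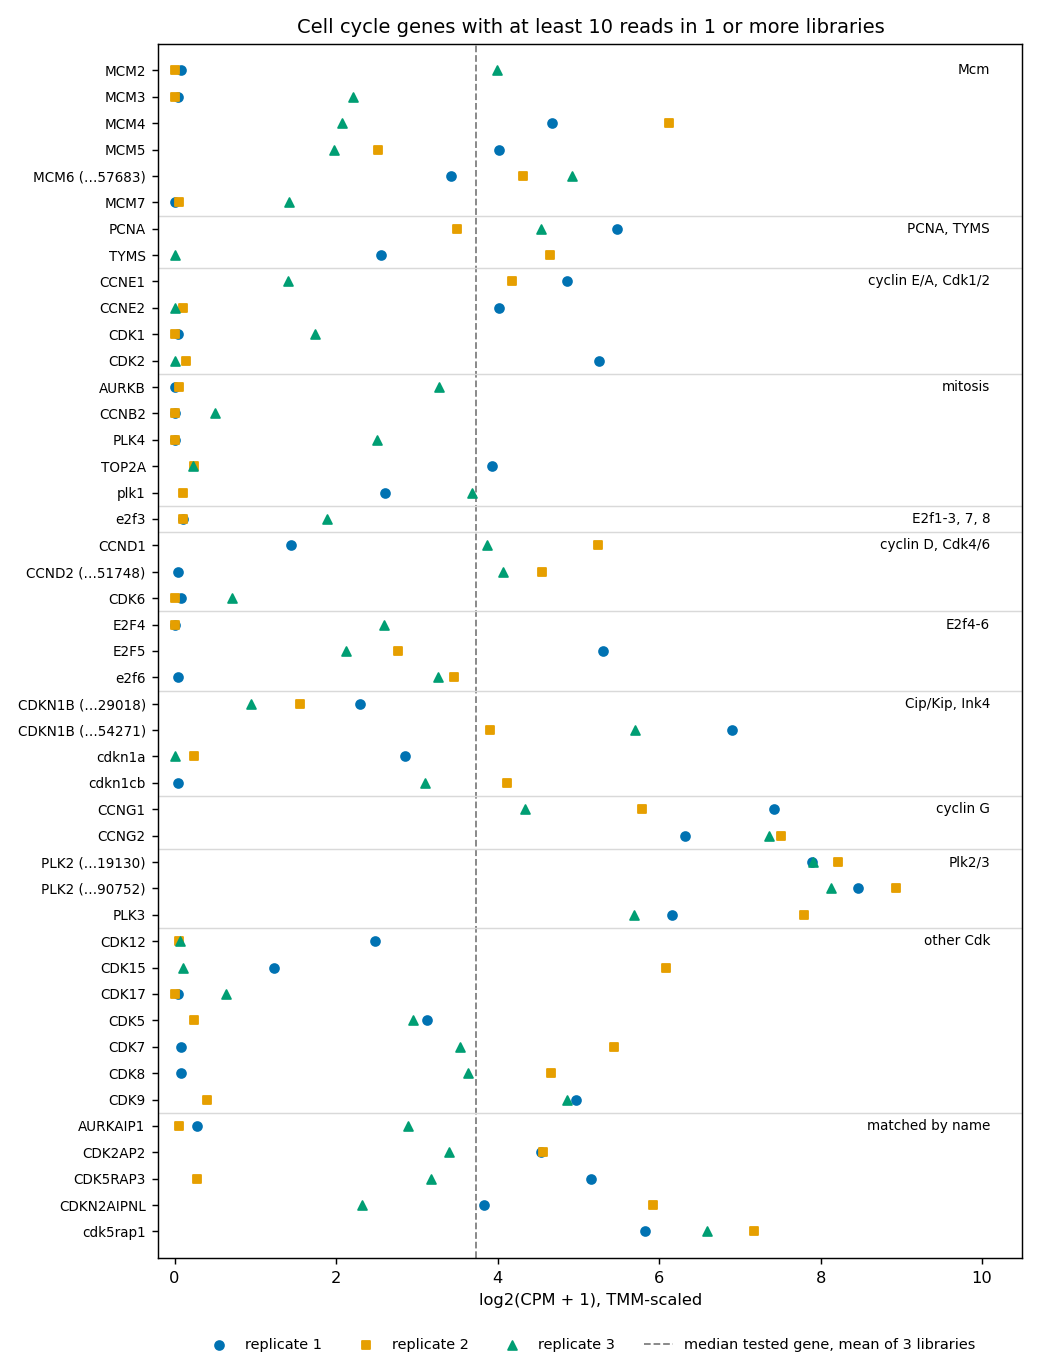
Level of each cell cycle gene that reached 10 reads in at least 1 library, as log2(CPM + 1) on the x axis, with 1 symbol per library and the median tested gene as a dashed line. Genes are grouped by role, and a copy of a shared symbol carries the end of its gene ID. Both PLK2 copies, CCNG1, CCNG2 and PLK3 lie to the right of the line in all 3 libraries, while MCM2, CDK1, AURKB and PLK4 lie clear of 0 in replicate 3 only.

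The genes that open the cycle were uneven. CCND1, a D cyclin that answers growth factors, had 65, 1034 and 558 reads (1.72, 36.9 and 13.6 CPM) in replicates 1, 2 and 3. One copy of CCND2 (ENSDARG00000051748) had 1, 627 and 649 reads, and the other (ENSDARG00000070408) had 0 in every library, as did ccnd3. For both CCND1 and CCND2, replicate 1 was the low library. The log2 ratios to the median gene, 0.54 ± 1.23 for CCND1 and 0.07 ± 1.52 for CCND2 (SE), did not pass edgeR's test, with adjusted p = 0.892 and 0.989.

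The kinase partners of the D cyclins were barely seen. CDK4 had 5, 1 and 0 reads and CDK6 had 2, 0 and 26. RB1, the retinoblastoma gene, had 2, 0 and 0 reads, at or below the floor in each library. Of the E2f factors that activate replication genes or are induced with them, E2F1 and E2F8 had no reads, e2f2 had 1, 0 and 0, E2F7 had 2, 0 and 1, and e2f3 had 3, 2 and 111. None of these 5 passed the filter, which 25.8% of all genes with a symbol did.

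Of the mostly repressive E2f genes 2 of 3 were tested. E2F5 had 1453, 163 and 138 reads, high in replicate 1, and e2f6 had 1, 281 and 353, low in replicate 1. E2F4 had 0, 0 and 207 reads. The log2 ratios to the median gene, 0.35 ± 1.2 for E2F5 and -0.97 ± 1.72 for e2f6 (SE), did not pass (adjusted p = 0.937 and 0.881, edgeR).

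Of the 6 subunits of the replicative helicase, MCM4, MCM5 and MCM6 were read in all 3 libraries and the others in 1. MCM4 had 930, 1920 and 132 reads, at 24.6, 68.6 and 3.21 CPM. MCM5 had 574, 132 and 120 reads, and MCM6 (ENSDARG00000057683) had 369, 530 and 1199. No library was the highest for all 3 genes: MCM4 peaked in replicate 2, MCM5 in replicate 1 and MCM6 in replicate 3.

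MCM2 had 2, 0 and 611 reads, MCM3 had 1, 0 and 149, and MCM7 had 0, 1 and 69. These 3 subunits were thus at or below the floor in replicates 1 and 2. The second copy of MCM6 (ENSDARG00000033231) and MCM10, a factor of replication start, had no reads, and mcm3l had 1, 0 and 0. The log2 ratios of MCM4, MCM5 and MCM6 to the median gene were 1.43 ± 0.93, -0.70 ± 1.53 and 0.64 ± 1.00 (SE), and none passed (adjusted p = 0.272, 0.907 and 0.809, edgeR).

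PCNA, the sliding clamp of the DNA polymerases, had 1649, 289 and 915 reads, or 43.7, 10.3 and 22.2 CPM. It was present in each library and lowest in replicate 2. TYMS, the thymidylate synthase that makes a DNA building block, had 185, 671 and 0 reads, so it had none in replicate 3, in which MCM2, MCM3 and MCM7 were found. PCNA stood at a log2 ratio of 1.02 ± 0.85 and TYMS at -0.30 ± 1.78 (SE), and neither passed (adjusted p = 0.480 and 0.966, edgeR).

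The cyclins E and A and their kinases differed by library. CCNE1, which drives entry into S phase, had 1063, 480 and 68 reads (28.1, 17.1 and 1.65 CPM), falling on either side of the median gene, and did not pass (log2 ratio 0.35 ± 1.24 (SE), edgeR adjusted p = 0.939). CCNE2 had 576, 2 and 0 reads, and CDK2, the kinase of both, had 1404, 3 and 0. Replicate 1 thus held nearly all reads of CCNE2 and CDK2, at 15.2 and 37.2 CPM. The A cyclins, which act in S and G2 phase, were at or below the floor in every library, with 1, 0 and 3 reads of CCNA2 and 1, 0 and 0 of CCNA1.

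Of the 9 genes of mitosis 1 was tested (11.1%, against 25.8% of all genes with a symbol). In every library 4 were under 10 reads (44.4%, against 56.8%), and 4 reached 10 reads in 1 library (44.4%, against 17.4%). The widely used division marker mki67, which codes for Ki-67, had 0, 1 and 0 reads, at or below the floor in each library. CCNB1, the main mitotic cyclin, had 1, 0 and 0 reads, CCNB2 had 0, 0 and 17, and ccnb3 and aurka had none. CDK1, the kinase of mitosis, had 1, 0 and 96 reads, or 2.33 CPM in replicate 3. AURKB, which corrects chromosome attachment, had 0, 1 and 357, and PLK4, which starts centriole duplication, had 0, 0 and 192.

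TOP2A, which untangles chromosomes, had 540, 5 and 7 reads, so its reads lay in replicate 1 where those of AURKB and CDK1 lay in replicate 3. The Polo-like kinase gene plk1 had 192, 2 and 488 reads and was the tested mitotic gene. Its ratio to the median gene was -1.16 ± 1.68 in log2 units (SE), with an edgeR adjusted p of 0.836. Apart from plk1, the mitotic genes with 10 reads were each found in 1 library, TOP2A in replicate 1 and AURKB, CCNB2 and PLK4 in replicate 3. Replicate 2 had at most 5 reads of any of the 9.

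Among the inhibitors, a copy of CDKN1B had the highest mean level. CDKN1B, which codes for p27 and holds cells in quiescence, carries its symbol on 2 gene IDs. The copy ENSDARG00000054271 had 4486, 391 and 2104 reads, or 119, 14 and 51.2 CPM. It was high in replicate 1 and near the median gene in replicate 2. In log2 units it stood 2.29 ± 0.57 (SE) above the median gene, and edgeR's adjusted p was 0.00113. That call depends on single libraries: the log2 ratio was 0.69 without replicate 1 (adjusted p = 0.657), 1.38 without replicate 3 (adjusted p = 0.261) and 1.16 among genes with 10 reads in all 3 libraries (adjusted p = 0.164). Its mean level of 61.3 CPM became 32.6 CPM without replicate 1.

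The other copy of CDKN1B, ENSDARG00000029018, had 148, 54 and 38 reads. It lay at -2.45 ± 1.54 (SE) in log2 units against the median gene and did not pass edgeR's test (adjusted p = 0.541). With replicate 1 left out it was called below, at -4.05 (adjusted p = 0.00549), as it was among genes with 10 reads in all 3 libraries, at -3.66 (adjusted p = 0.0149). In every library it was the lower of both copies. How the authors' counting split reads between similar copies is not known here, so the values of each copy are uncertain.

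cdkn1a, which codes for p21, had 235, 5 and 0 reads and did not reach the filter. Of the p57 genes, cdkn1cb had 1, 457 and 312 reads, and cdkn1ca had none. Against the median gene cdkn1cb lay at -0.59 ± 1.70 in log2 units (SE) and did not pass (edgeR adjusted p = 0.932). Replicate 1 held nearly all reads of cdkn1a and replicates 2 and 3 those of cdkn1cb. The 3 Ink4-type genes found, cdkn2a/b, CDKN2C and CDKN2D, which block Cdk4 and Cdk6, had 0 reads in every library. By counting error alone, a count of 0 allows a level of up to 0.0794, 0.107 and 0.0729 CPM in replicates 1, 2 and 3. The RNA was amplified, so the true level may lie higher.

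Both G cyclins stood above the median gene in every library. CCNG2, an unusual cyclin that in mammalian cells rises as they leave the cycle, had 2987, 5103 and 6699 reads, at 79.1, 182 and 163 CPM. Its lowest library was replicate 1. The log2 ratio to the median gene, 3.53 ± 0.38 (SE), passed edgeR's test with an adjusted p of 8.24e-08. CCNG1, the other G cyclin gene, had 6454, 1514 and 788 reads, at 171, 54.1 and 19.2 CPM. Replicate 1 held 70% of its summed CPM. CCNG1 stood 2.72 ± 0.56 log2 units (SE) above the median gene (edgeR adjusted p = 0.000124). The call of CCNG1 was lost without replicate 1, where the mean was 36.6 CPM and the log2 ratio 0.60 (adjusted p = 0.715), and among genes with 10 reads in all 3 libraries, where the ratio was 1.52 (adjusted p = 0.0581).

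The highest read levels of all 86 genes were those of PLK2, a Polo-like kinase gene that in mammalian cells responds to serum and stress. PLK2 has 2 gene IDs here, and both were high. The copy ENSDARG00000090752 had 13324, 13658 and 11474 reads, at 353, 488 and 279 CPM. It stood 4.93 ± 0.31 log2 units (SE) above the median gene, with an edgeR adjusted p of 4.07e-11. The copy ENSDARG00000019130 had 8909, 8315 and 9827 reads, at 236, 297 and 239 CPM, and stood 4.39 ± 0.31 log2 units (SE) above it (edgeR adjusted p = 2.51e-10). The coefficients of variation over libraries were 0.284 and 0.134. Among the 313 tested genes of 200 to 1000 CPM the median was 0.313 and the quartiles were 0.19 and 0.488, so the first copy varied as such genes do and the second lay below the lower quartile.

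PLK3, a stress-responsive relative, had 2661, 6224 and 2087 reads, at 70.4, 222 and 50.7 CPM. Replicate 2 was the high library. PLK3 stood 3.25 ± 0.48 log2 units (SE) above the median gene (edgeR adjusted p = 2.67e-06), and its mean of 115 CPM was 60.6 CPM without replicate 2. The calls of both PLK2 copies, PLK3, CCNG2 and cdk5rap1 held without each replicate in turn, with DESeq2 and with limma-trend.

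**Figure D3:**
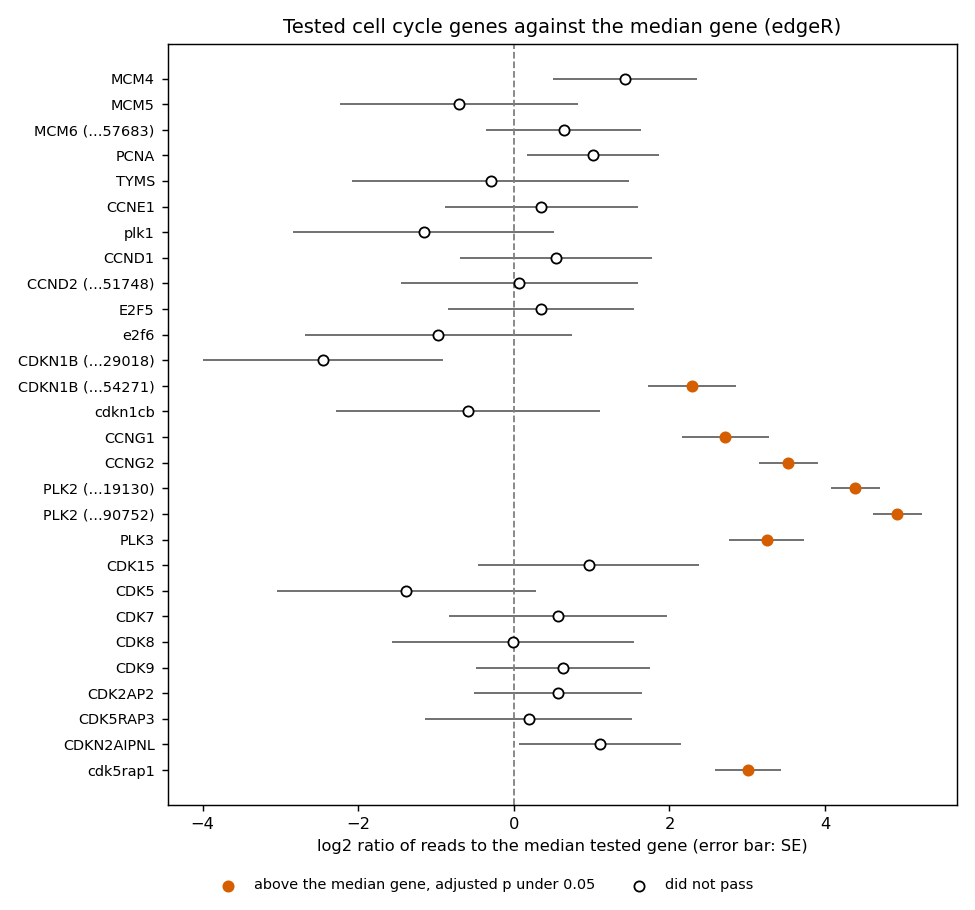
Log2 ratio of reads to the median tested gene for the 28 tested cell cycle genes (x axis), with SE as error bars, where filled points passed at an adjusted p under 0.05. The 7 filled points lie between 2.29 and 4.93, and the error bars of most open points cross 0.

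Of 16 other cyclin-dependent kinase genes, several of which act in transcription, 5 were tested (31.2%, against 25.8% of all genes with a symbol). Of the 5, 0 were called above and 0 below by edgeR, DESeq2 and limma-trend, and 0 lay below at an unadjusted p under 0.05 (edgeR). Over all tested genes edgeR called 23.4% above and 1.24% below, and 250 of 7111 lay below at that unadjusted p. With 5 genes, 0 called cannot be told from this background. CDK7, which activates other Cdk proteins and works in transcription, had 2, 1190 and 435 reads, and CDK8 of the Mediator complex had 2, 681 and 467. CDK9, which releases paused RNA polymerase, had 1143, 9 and 1155, and the neuronal kinase gene CDK5 had 291, 5 and 276. CDK7 and CDK8 were thus nearly without reads in replicate 1, and CDK9 and CDK5 in replicate 2. CDK15 had 51, 1873 and 3 reads. Log2 ratios of the 5 lay between -1.38 and 0.96, with adjusted p of 0.787 or more (edgeR). CDK12 had 173, 1 and 2 reads and CDK17 had 1, 0 and 23, and the other 9 had at most 3 reads in any library.

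Of the 13 genes matched by name only, 4 were tested (30.8%, against 25.8% of all genes with a symbol), and cdk5rap1 stood above the median gene. The gene cdk5rap1 codes for an enzyme that modifies mitochondrial tRNA, known from mammals, and had 2101, 4011 and 3933 reads, at 55.6, 143 and 95.6 CPM. It stood 3.01 ± 0.43 log2 units (SE) above the median gene, lowest in replicate 1 (edgeR adjusted p = 2.79e-06). CDK2AP2 had 841, 634 and 391 reads, CDKN2AIPNL had 501, 1670 and 164, and CDK5RAP3 had 1310, 6 and 332. These 3 did not pass (adjusted p = 0.861, 0.558 and 0.972, edgeR). AURKAIP1 had 8, 1 and 265 reads and the other 8 had at most 7 in any library. MCM8 and MCM9, helicases of DNA repair, had at most 3 reads, and CDKN3 had none.

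The proliferation genes and the inhibitors were then set side by side. The median gene of each class lay near 0 in every library. For the 31 proliferation genes the median was 0.04, 0.00 and 0.10 on the log2(CPM + 1) scale in replicates 1, 2 and 3, and for the 8 inhibitors it was 0.02, 0.12 and 0.00. The difference, inhibitors minus proliferation genes, was -0.02, 0.12 and -0.10, a mean of 0.00 ± 0.11 (SD, n = 3), with no common sign. Over tested members alone it was -0.32 ± 1.37. A difference between the class medians was not detected in these 3 libraries, and with undetected genes in both classes each median lies near the floor.

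Sums of reads depend on the number of genes, 31 against 8, and few genes carried each sum. The 31 proliferation genes together held 198, 144 and 110.3 CPM, and the 8 inhibitors 129, 32.4 and 59.7 CPM. The inhibitor sum was below the proliferation sum in 3 of 3 libraries, at 0.65, 0.225 and 0.541 of it, a log2 ratio of -1.22 ± 0.82 (SD, n = 3). Divided by the number of genes, the order turned in replicates 1 and 3: the inhibitors had 16.1, 4.05 and 7.46 CPM per gene and the proliferation genes 6.4, 4.65 and 3.56, a log2 ratio of 0.73 ± 0.82. The CDKN1B copy ENSDARG00000054271 made up 92.1%, 43.1% and 85.7% of the inhibitor sum, and without it the sum was 10.2, 18.4 and 8.51 CPM. In replicate 2 cdkn1cb made up 50.4%. On the proliferation side PCNA led in replicate 1 with 22% of the sum, MCM4 in replicate 2 with 47.5% and MCM6 in replicate 3 with 26.4%.

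Where RB1 and the G cyclins were counted with the inhibitors, the log2 ratio of the sums turned to 0.99 ± 0.13. RB1 and the G cyclins held 250, 236 and 182 CPM, nearly all of it from CCNG1 and CCNG2. The 3 genes of PLK2 and PLK3 held 659, 1007 and 569 CPM, above the proliferation sum in every library, and the D cyclins with CDK4 and CDK6 held 1.93, 59.4 and 30 CPM. The order of the classes thus turned with the genes called inhibitors and with division by the number of genes.

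**Figure D4:**
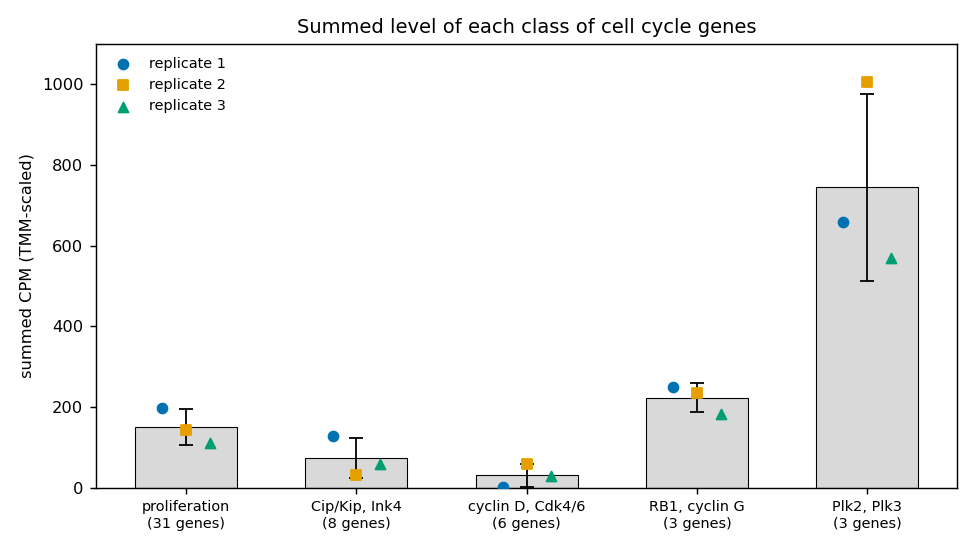
Summed CPM (y axis) of 5 classes of cell cycle genes, with points for the 3 libraries, bars for their mean and error bars for the SD. The Plk2 and Plk3 sum has a mean of 745 CPM and lies above the other 4 sums in all 3 libraries, and the sums cover unequal numbers of genes, 31 for the proliferation class and 8 for the inhibitors.

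Which cell cycle genes were seen depended on the library. Proliferation genes with at least 10 reads numbered 10, 6 and 14 of 31 in replicates 1, 2 and 3 (32.3%, 19.4% and 45.2%). The same share of all genes with a symbol was 26.9%, 22.2% and 35.0%, with the same order of libraries. Inhibitors with 10 reads numbered 3 in each library. Of the 17 members found in 1 library, 12 were found in replicate 3 (14% of the 86, against 10.4% of all genes with a symbol), 5 in replicate 1 (5.81% against 4.56%) and 0 in replicate 2 (0% against 2.49%).

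The set seen in replicate 3 alone was made of 8 proliferation genes, MCM2, MCM3, MCM7, CDK1, AURKB, CCNB2, PLK4 and e2f3, with CDK6, CDK17, E2F4 and AURKAIP1. The 8 are 25.8% of the proliferation genes, against 10.4% of all genes with a symbol. In replicate 1 alone it was CDK2, CCNE2, TOP2A, cdkn1a and CDK12. The summed level of macrophage markers was also highest in replicate 3. The 16 macrophage and microglia markers found summed to 1111, 1098 and 3382 CPM, and 11 of them had 10 reads in replicate 3, against 4 and 7 in replicates 1 and 2. The lipid carrier gene apoeb had 37383, 20267 and 97369 reads and the antigen presentation gene cd74a had 3530, 6890 and 22496. The receptor gene csf1ra had 0, 3 and 102 reads and ptprc, the leukocyte marker CD45, had 8, 1 and 237, while LCP1, spi1a and P2RY12 were at 0 in all 3. Other genes of the list went another way: SPI1 had 7, 1500 and 14 reads, SLC7A7 had 966, 1042 and 8, and the complement gene c1qc had 0, 620 and 511. Of 11 lymphocyte markers, 7 had 10 reads in replicate 3, against 1 and 2, though their summed CPM was 13.8, 75.1 and 22.4, and PAX5, il2rb and cd79b were at 0 in all 3. The B cell genes ighm, with 0, 1664 and 156 reads, and cd79a, with 0, 435 and 90, led this list. The part of such cells in the replicate 3 reads of cell cycle genes was not tested.

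Replicate 2 held the highest CPM of 16 of the 28 tested members (57.1%), PLK3, MCM4, CCND1, CDK7 and CDK15 among them, against 39.7% of all tested genes. With plain library size in place of TMM it held 10 of 28 (35.7%), against 28.9%. TMM was the only scaling used for sums of markers. With it, those of oligodendrocytes, pericytes, radial glia and neurons were also highest in replicate 2, as were those of lymphocytes (13.8, 75.1 and 22.4 CPM). So were the lymphatic endothelial markers, at 5884, 7483 and 5849 CPM in replicates 1, 2 and 3. The sum over all genes in the table was 954232, 1256343 and 834138 CPM. In replicates 1, 2 and 3 the 11 oligodendrocyte markers summed to 709, 2421 and 836 CPM, the 8 pericyte markers to 164, 694 and 96.2, the 11 radial glia markers to 47.4, 339 and 74.3, and the 14 neuron markers to 73.2, 238 and 109. Oligodendrocyte markers with 10 reads numbered 5 in each library and pericyte markers 2 in each, while radial glia markers numbered 2, 2 and 4 and neuron markers 8, 8 and 12. Of their defining genes, olig1, nes and KCNJ8 were at 0 in all 3 libraries and PDGFRB had 1, 0 and 0 reads. Single genes carried most of the replicate 2 sums: mbpa held 2109 CPM, RGS5 651, a copy of FABP7 303 and GNG3 138. Some genes of these lists peaked in another library. The pericyte gene rgs5b had 15.6, 42.7 and 77.4 CPM, and a copy of the neuron gene SNAP25 (ENSDARG00000058117) had 825, 8 and 483 reads. The part of such cells in the replicate 2 reads of cell cycle genes was not tested.

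The rest of the pathway was taken from 5 lists. Of 44 further genes of DNA replication 13 could be tested (29.5%, against 25.8% of all genes with a symbol). Of the 13, 1 was called above and 0 below (0 below by DESeq2, by limma-trend and at an unadjusted p under 0.05). Of all tested genes 23.4% were called above and 1.24% below by edgeR, and 250 of 7111 lay below at an unadjusted p under 0.05. DESeq2 called 0% of them below and limma-trend 14.2%. The median log2 ratio of the 13 was -0.18, against 0.22 over all tested genes. The gene called above was RFC2, a subunit of the loader of the Pcna clamp, with 5244, 4631 and 1726 reads, lowest in replicate 3. It stood 3.25 ± 0.44 log2 units (SE) above the median gene (edgeR adjusted p = 1.35e-06). RPA1, which coats single-stranded DNA, had 1819, 747 and 625 reads and did not pass (adjusted p = 0.241), nor did GINS1, a partner of the helicase, with 490, 682 and 920 (adjusted p = 0.786). FEN1, a flap nuclease, had 867, 11 and 858 reads (adjusted p = 0.961). In replicate 3 alone 10 of the 44 had 10 reads, or 22.7%, against 10.4% of all genes with a symbol.

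Of 40 further mitosis genes 0 passed the filter, against 25.8% of all genes with a symbol. In every library 29 were under 10 reads, and 11 reached 10 reads in 1 library (27.5%, against 17.4%). All genes with a symbol were under 10 reads everywhere in 56.8% of cases, against 72.5% of this list. The highest counts were 652, 0 and 0 reads of KIF23, a motor of cytokinesis, 587, 4 and 0 of nuf2 and 0, 571 and 1 of SPC25, both of the kinetochore, and 0, 0 and 558 of kif2c. These 4 were chosen after their values were seen. They came from 3 different libraries.

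Of 36 regulators of entry into the cycle and its later steps 13 could be tested (36.1%, against 25.8% of all genes with a symbol). Of the 13, 3 were called above and 0 below (0 below by DESeq2 and at an unadjusted p under 0.05, 2 by limma-trend). The count of 3 of 13 is near the 23.4% of all tested genes called above, and the median log2 ratio of the 13 was 0.05. A copy of MYC (ENSDARG00000007241), the growth factor-responsive transcription factor, had 21372, 15503 and 17832 reads, close together over the libraries. It stood 5.40 ± 0.29 log2 units (SE) above the median gene (edgeR adjusted p = 3.86e-12), while a second copy (ENSDARG00000045695) had 7, 0 and 1 reads. The Cdk-activating phosphatase gene cdc25b had 3807, 4740 and 2315 reads (109 CPM ± 56.9, edgeR adjusted p = 1.41e-06). The gene of a kinase that restrains Cdk1, pkmyt1, had 1647, 855 and 3277 (51.3 CPM ± 25.4, SD, edgeR adjusted p = 0.0021). ANAPC11, a subunit of the complex that ends mitosis, had 859, 1142 and 1780 reads and did not pass (adjusted p = 0.0734). The count above was 2, 4 and 2 without replicates 1, 2 and 3, of 6, 11 and 8 tested (background 23.3%, 27.2% and 21.1%).

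Of 32 genes of growth arrest, stress and p53 regulation, mdm2 and MDM4 among them, 23 could be tested. That is 71.9%, against 25.8% of all genes with a symbol. Of the 23 tested, edgeR called 11 above, where 23.4% of all tested genes were, and 0 below. The list, like the others, was chosen with earlier results of these data known, so its share above is not an independent test. The median log2 ratio of the 23 was 1.68, against 0.22 over all tested genes. DESeq2 called 11 above and 0 below, against 22.3% and 0% of all tested genes. By limma-trend 12 were above and 1 below, against 22.8% and 14.2%. BTG2, an antiproliferative gene induced by growth factors in mammals, had 14659, 7365 and 38162 reads, highest in replicate 3. It stood 5.40 ± 0.36 log2 units (SE) above the median gene (edgeR adjusted p = 2.78e-11). TXNIP (ENSDARG00000036107), an inhibitor of thioredoxin, had 12417, 12797 and 13610 reads, while a second copy (ENSDARG00000070000) had 0, 1 and 0. GADD45B (ENSDARG00000027744), a stress response gene, had 12760, 5787 and 10312 reads, and BTG1 had 7947, 4403 and 9496. In BTG2, the first TXNIP copy, this GADD45B copy and BTG1 every library was far above the floor. Without replicates 1, 2 and 3 the list had 10, 11 and 8 genes above, of 22, 21 and 20 tested (background 23.3%, 27.2% and 21.1%). Below stood 0, 0 and 1 (background 6.34%, 8.25% and 4.84%).

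Of 13 further cyclin genes 7 could be tested (53.8%, against 25.8% of all genes with a symbol). Called above were 2, near the 23.4% of all tested genes, and 0 were below (0 by DESeq2, limma-trend and at an unadjusted p under 0.05). Both genes called above code for L cyclins, which act in RNA splicing. CCNL1 had 9942, 4631 and 8052 reads and ccnl1b had 2132, 5038 and 3725. Their log2 ratios were 4.07 ± 0.32 and 3.17 ± 0.44 (SE), with edgeR adjusted p = 1.52e-09 and 1.57e-06. CCNYL1 had 1149, 1561 and 52 reads and CCNI, an unusual cyclin, had 125, 787 and 214, and neither passed (adjusted p = 0.416 and 0.996).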

How the data were processed

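RNA of 3 libraries of sorted muLECs was sequenced. The values used are counts, deposited by the authors as whole-number reads per gene with no normalization seen. The submitters' processing notes name GRCz10, bcl2fastq and R 3.2.2. Which aligner and counter made them, and whether strand was used, is not known from the labels. The deposited YuGene scores were not used. Columns named pvLEC were matched to samples by replicate number.

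Symbols were looked up by Ensembl ID, many of them spelled in human style, and 5836 IDs had none. Of the 86 members, 12 share a symbol with another. Roles were set from known functions. Lists were matched by symbol, 277 genes for 310 symbols. Members and lists were chosen with earlier results of these data known.

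With edgeR 4.0.16, the intercept was tested by quasi-likelihood, with an offset set by the median tested gene of a library and Benjamini-Hochberg adjustment over 7111 genes (threshold 0.05). The procedure was tested on simulated data. Named were all tested members, fixed cell cycle genes and inhibitors at any level, and the 4 highest tested genes of each list. Others named (further members, csf1ra and ptprc among them) were chosen after their values were seen. Alternatives used DESeq2 1.42.0 and limma 3.58.1. P-values rest on the spread between 3 libraries, each from a pool of 6 brains. The spread of each gene was moderated with that of the other tested genes. With 1 amplified library per pool, differences between pools and those from RNA amplification cannot be told apart. Floors cover counting error only, since amplified reads are not independent molecules.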

Additional observations from a re-analysis of the deposited data

How the results depend on the processing

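The 7 members above the median gene numbered 5 to 7 without each replicate in turn, 5 with 10 reads required in all 3 libraries and 7 under DESeq2 size factors, plain library size, DESeq2, limma-trend and counts under 2% of the highest library set to 0. Members below numbered 0 to 1 without each replicate and 1 with 10 reads required in all 3 libraries, the lower CDKN1B copy. Members tested numbered 19 to 22 without each replicate, 17 with 10 reads required in all 3, and 62 with no filter. The share of all tested genes called was worked out only for the main fit, the fits without a replicate, the DESeq2 test and limma-trend. Counts above and below under the other settings thus have no background to be read against. With no filter 34 members stood above, but the median gene then had 3, 1 and 17 reads, and the ratios of 8 genes turned positive: CDKN1B (ENSDARG00000029018) 5.14, cdkn1cb 7.31, CDK5 5.30, CDK8 7.88, e2f6 6.65, plk1 4.98, MCM5 6.78 and TYMS 7.93. The other reversals were of genes that did not pass. With limma-trend CCND1 was -0.22, CCND2 -0.85, CDK15 -1.26, CDK7 -0.72, CDK9 -0.33, E2F5 -0.34, CDK5RAP3 -0.86 and CCNE1 -0.25. With 10 reads in all 3 libraries CCND1 was -0.81, E2F5 -0.82, CDK2AP2 -0.68, CDKN2AIPNL -0.29, CCNE1 -0.90, MCM6 -0.54 and PCNA -0.12. Leaving out each replicate in turn, the ratio ranged from -1.11 to 0.07 for CCND1, -2.34 to 0.24 for E2F5, -0.57 to -0.13 for CDK2AP2, -1.02 to 0.33 for CDKN2AIPNL, -1.45 to -0.24 for CCNE1, -0.34 to 0.71 for MCM4, -0.97 to 0.22 for MCM6 and -0.36 to 0.93 for PCNA, and was -0.26 for CCND2 without replicate 1. CCND2 was -0.01 with plain library size and CDK8 0.03 with DESeq2 size factors. The reference gene rises where fewer low genes are tested, by construction of those settings, and the cause of the other shifts was not tested.

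With a pseudocount of 0.5 the medians of the proliferation genes and inhibitors were -0.91 and -0.91. Over tested members they were 3.42 and 3.10, a difference of -0.32. The log2 ratio of summed CPM, chosen after seeing the data, was -1.52 to -0.75 without each replicate, 0.99 with RB1 and the G cyclins among the inhibitors and 0.73 with each sum divided by its number of genes. Ratios per coding length were not run, since no transcript lengths were used here. No paired analysis was possible because there is 1 group. At the depth of these libraries 3 reads are 0.0729 to 0.107 CPM, a floor for counting error only.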
